A study of Mus musculus with 16 samples.

Results

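The genes of the cytosolic ribosomal proteins were followed through an RNA-seq experiment on bone marrow-derived macrophages (BMDM) from mice with and without NELF-B, a subunit of the negative elongation factor that holds RNA polymerase II near promoters. Members were taken by symbol (Rpl or Rps followed by a digit, or Rplp followed by a digit), leaving out pseudogene symbols and the 8 Rps6k kinases. This gave 78 of the 9614 genes in the table. Of these, 46 encode proteins of the large subunit and 27 proteins of the small subunit. The remaining 5 are paralogs or genes named like ribosomal proteins (Rpl22l1, Rpl36al, Rpl7l1, Rps27l and Rps19bp1, the last of which encodes a protein that binds Rps19). Rps6, Rps12 and Rps27 were not analysed here.

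The 16 libraries came from 8-week-old C57BL/6 male mice, 3 of each genotype. WT cells were LysM-Cre:NELF-B wt/wt and KO cells were LysM-Cre:NELF-B fl/fl, so that both genotypes carried Cre, which the LysM promoter drives in myeloid cells. Cells were left untreated (2 libraries per genotype) or were exposed for 1 hr to 10 ng/ml LPS, or to LPS with 100 nM Dex (3 libraries per genotype each). LPS is a bacterial cell wall component that activates TLR4, and Dex (dexamethasone) is a glucocorticoid receptor agonist. The letters A, B and C stand for the 3 mice of a genotype, and all libraries from 1 mouse carry its letter. The untreated groups held mice A and B.

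Each cytosolic ribosome contains 1 copy of most of these proteins, and their genes are transcribed at a high and roughly matched rate. Their mRNAs are short, abundant and stable, and most belong to the class of terminal oligopyrimidine (TOP) mRNAs, whose transcripts open with a C followed by an unbroken run of pyrimidines. The kinase mTOR controls the translation of TOP mRNAs through Larp1 and the eIF4E-binding proteins, so that ribosome production can change without a change in mRNA level. In macrophages, LPS signals through the same kinase. Polyadenylated RNA, the molecule measured here, reports the mRNA level and not its translation.

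Pyrimidine runs were more frequent around the annotated transcription start of members than of all genes in the table, wherever in the window they began. RefSeq promoters (GRCm38.p6) were matched for 58 members. In the 70 bases from 20 before to 50 after the annotated start, read on the sense strand, 43 of the 58 (74.1%) held an unbroken run of at least 8 C or T, against 22.2% of 7399 promoters of genes in the table and 25.4% of all 27025 promoters. The same search for A or G, the complement on the opposite strand, found 7 members (12.1%), against 28.0% of all promoters. The letters CCGGAAG, the core bound by ETS factors, stood on either strand of the 300-base promoters of 22 members (37.9%), against 20.9% of the promoters of genes in the table, and AAGATGGC, the core bound by YY1, in 4 (6.90%), against 5.42%. The 4 members of the highest level in these cells are shown first, because their runs differ in length from 5 bases in Rps3 to 15 in Rpl4. Then come 4 members that recur below (Rplp2 of the stalk, Rpl11 of the 5S particle, and the common reference genes Rpl13a and Rps18) and 2 genes whose longest run in the 70-base window is of 3 bases (Rpl7l1 and Rps19bp1). Each line gives 30 bases, 5′ to 3′, with the longest sense-strand pyrimidine run that lies in that window in capitals, and a line can begin outside it. The windows lie at chr5:115559472-115559501 (+) for Rplp0, chr9:64173407-64173436 (+) for Rpl4, chr7:3704029-3704058 (+) for Rps9, chr7:99483667-99483696 (−) for Rps3, chr7:141447640-141447669 (+) for Rplp2, chr4:136053357-136053386 (−) for Rpl11, chr7:45128720-45128749 (−) for Rpl13a, chr17:33955644-33955673 (−) for Rps18, chr17:46782652-46782681 (−) for Rpl7l1 and chr15:80264284-80264313 (−) for Rps19bp1.
Rplp0: gcctggTTCTCCTataaaaggcacacgcgg
Rpl4: gcgtggCCTTCTCCTCTCCCCgtcatggtg
Rps9: gccttgTCTCTCTTTgtctcgggcctgagt
Rps3: tcattgCTCCCgccctatatacctacttcc
Rplp2: tcagcgTCTTCCTTTCgccgccggacgccg
Rpl11: cggaagTCTCCCTCTCTCTTCCTgttctcc
Rpl13a: acaagaCCTCCTCCTTTCCCaggcggctgc
Rps18: cttccgCTCTCTCTTCCacaggaggcctac
Rpl7l1: accccgCCCggtgaggctgcgcaagcgcag
Rps19bp1: aagtagCTCgccgcgtgtgggcggggctcg
The run began at the annotated start or within 6 bases before it in Rps9, Rplp2 and Rps18. It began 3 bases downstream of that start in Rpl13a, 12 in Rplp0, 14 in Rpl11, 20 in Rps3 and 27 in Rpl4. In Rps19 and Rpl41, not printed, it began 40 and 41 bases downstream. These matches describe letters in a window around an annotated start and not measured start sites. A run in the window need not open the transcript.

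A second sequence property bears on how well each member could be measured. Ribosomal protein genes have left many processed pseudogenes in the mouse genome, and the values count reads that map to a single place. In GENCODE transcripts (vM21, GRCm38), 76 of the 78 members shared at least one 50-base stretch with an annotated pseudogene, and the share of 50-base stretches found in no other gene ran from 4.9% to 100%, with a median of 46.5%. The first 50 coding bases are shown, with the start codon in capitals, for the 3 members whose KO and WT libraries separate below as lower in KO. Rpl9 lies at chr5:65388364-65391444 (−), Rpl10 at chrX:74270812-74273135 (+) and Rps27a at chr11:29545846-29548109 (−).
Rpl9: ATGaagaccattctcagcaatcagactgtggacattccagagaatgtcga
Rpl10: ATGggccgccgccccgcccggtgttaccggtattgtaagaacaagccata
Rps27a: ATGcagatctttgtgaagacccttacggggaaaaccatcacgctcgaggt
The printed stretch stood unchanged in 5 other genes for Rpl9, 3 for Rpl10 and 2 for Rps27a, most of them annotated as processed pseudogenes. For Rpl9 and Rpl10, 1 of these genes each was annotated as protein coding, and 1 of those of Rpl10 as a transcribed processed pseudogene. None of the 527, 593 and 419 coding 50-base stretches of Rpl9, Rpl10 and Rps27a was unique. Reads of such genes count only where they reach an untranslated part or where their mate settles the place, so that the values of these members are uncertain.

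Sequencing depth ran from 25029567 to 49728630 reads in the genes of the table. Nelfb, the targeted gene, stood at 5.59 to 6.21 log2 CPM in WT libraries and at 3.27 to 4.38 in KO libraries, with no overlap. Of 9 macrophage markers 8 were in the table, and their sum was 6991 to 9513 CPM in 15 libraries. T cell, erythroid and mast cell markers were absent from the table, and of the other types 1 of 7 neutrophil, 1 of 4 B cell, 4 of 4 fibroblast and 1 of 3 dendritic cell markers were listed, each sum being at most 145 CPM in those 15 libraries. In bulk RNA, fewer cells of a type and less RNA per cell cannot be told apart. The untreated WT library of mouse A (WT_CO_74) stood apart: 33.5% of all genes were higher there than in each of the other 15 libraries and 34.9% were lower than in each, against at most 7.05% and 6.93% for any other library. Its macrophage marker sum was 6678 CPM and its fibroblast sum 49.2 CPM, against at least 64.4 CPM in the rest. The members' comparisons that use it are given with and without it.

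Ribosomal protein mRNAs were abundant in these macrophages, and their levels differed widely between members. Over the 15 libraries without WT_CO_74, the median member stood at 6.90 log2 CPM, against 5.06 for all genes, and members ranged from 2.31 to 10.18. Small subunit members had a median of 7.94, large subunit members 6.54 and the paralogs 5.47. The highest were Rplp0, the scaffold of the ribosomal stalk, at 10.18 log2 CPM, Rpl4 at 9.92, Rps9 at 9.56 and Rps3, a protein at the mRNA entry channel, at 9.42. The lowest were Rps23 at 2.31, a protein of the decoding centre, Rpl27 at 2.58, Rpl23a at 2.62 and Rpl5, a carrier of 5S rRNA, at 2.91. Per length, on the scale of log2 CPM per kb of transcript, Rplp1 led at 10.36, with Rps9 at 9.97, Rpl32 at 9.92 and Rplp0 at 9.74, and Rpl5 stood at 1.88. Proteins that occupy the ribosome in equal number thus had listed mRNA levels that were far apart. The listed level moved with the share of unique sequence: the 33 members with over 50% unique stretches had a median of 7.94 and the other 45 a median of 6.56. Across the 78 members, which share libraries and depth, Pearson's r between level and unique share was 0.40 and Spearman's rho 0.42. Per kb the values were 0.26 and 0.31. Rps3, nearly all of whose stretches were unique, stood at 9.42, and Rpl9 and Rpl10, with 6.68% and 7.87% unique stretches, at 4.57 and 4.89. What part of the spread comes from reads that map to several places was not tested.

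**Figure D1:**
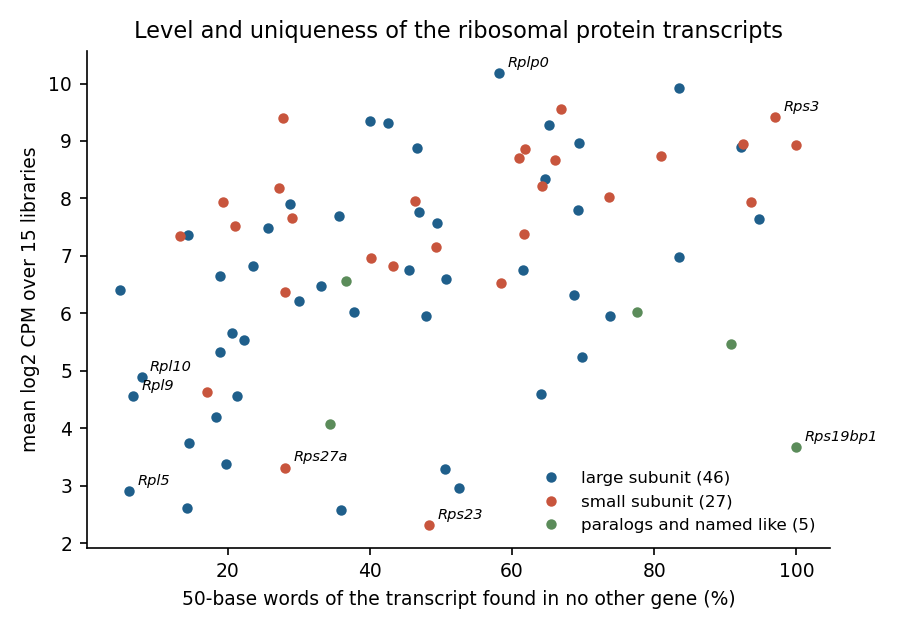
Mean level of each of the 78 members (log2 CPM, 15 libraries, y axis) against the percent of its 50-base stretches found in no other annotated gene (x axis); each point is a gene, coloured by subunit. Members with 50% or less unique sequence had a median of 6.56 log2 CPM, those above 50% a median of 7.94.

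The members moved together in 1 library. In WT_CO_74 they took 3.83% of the CPM of the table, against 1.44% to 1.83% in the other 15 libraries. Their median difference from the mean of the other 3 untreated libraries was 1.24 on the log2 scale (2.36-fold, quartiles 0.91 and 1.68), 77 of 78 were higher, and 71 of 78 (91.0%) were above the highest of all other 15 libraries. The background for that count is the 33.5% of all genes given above, and the median of all genes differed by −0.01. In each of the other 15 libraries 0 to 2 members were the highest of the 16. The lists moved alike by subunit, with medians of 1.21 for the large subunit, 1.34 for the small subunit and 1.39 for the 5 paralogs.

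**Figure D2:**
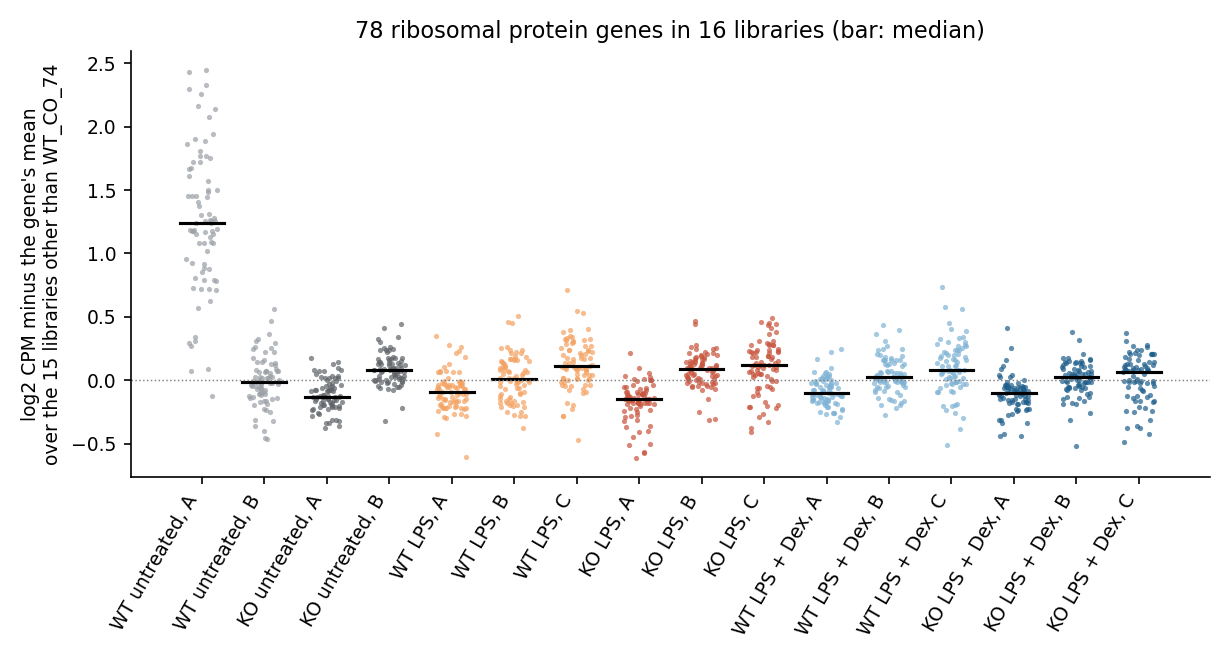
Difference of each of the 78 members from its mean over the 15 libraries other than WT_CO_74 (log2 scale, y axis) in each of the 16 libraries (x axis, named by genotype, treatment and mouse, the leftmost being WT_CO_74); points are genes and bars medians. The WT_CO_74 members centre on 1.24; the medians of the other libraries lie between −0.15 and 0.12.

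Single members show the size of the shift. Rpl24, a protein at the face between the subunits, stood at 6.53 log2 CPM in WT_CO_74, 3.74 in the other untreated WT library and 3.93 and 4.24 in untreated KO libraries, and between 3.74 and 4.44 in all 15. Rpl38 stood at 8.41 against 5.98, Rpl36a at 6.05 against 3.70 and Rpl13 at 5.81 against 3.54. These 4 had the greatest differences between the untreated WT libraries, 2.27 to 2.78. The reference genes that are often used to normalise quantitative PCR were among the raised ones. Rpl13a stood at 11.08 in WT_CO_74 and at 9.14 to 9.51 in the other 15 libraries, Rpl32 at 10.27 against 8.82 to 9.18, and Rps18 at 8.43 against 7.17 to 7.59. A value set relative to any of them would carry that library's shift with the opposite sign. At the other end, Rpl7l1 stood at 5.35 against 5.61 in the other untreated WT library, Rps27a at 3.39 against 3.62, Rpl15 at 5.50 against 5.70 and Rpl9 at 5.19 against 5.13. Rpl7l1 encodes a protein of ribosome assembly and not of the mature ribosome, and it was the 1 member below the mean of the other untreated libraries.

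Transcript length, GC content and gene class moved with the shift. Members were short, with a median of 814.5 bases against 2939 for all genes with an annotated length. In WT_CO_74, the 9133 other genes with a length differed from the other untreated libraries by a median of 1.28 at up to 500 bases, 1.15 between 500 and 750, 1.01 between 750 and 1000 and 0.75 between 1000 and 1500. They fell below zero at greater lengths, to −0.27 between 3000 and 5000 bases and −0.74 above 5000. Spearman's rho between the difference and log2 length was −0.60 over those genes and −0.29 over the 78 members. Between the difference and the GC content of the transcript it was 0.37 over those genes and 0.31 over the members. Other genes of up to 750 bases exceeded those above 5000 by 1.81 in WT_CO_74, and by −0.26 to 0.44 in the other 15 libraries. Within the same length classes the members stood higher than the other genes, with medians of 1.69 (13 members), 1.40 (19), 1.21 (22) and 1.09 (14) in the 4 shortest classes. The 2 members annotated with long transcripts stood apart from genes of their length, Rps20 (3706 bases) at 1.77 and Rps15a (5179 bases) at 1.12. Each length, also in the values per kb, is that of a single annotated transcript chosen per gene. Which transcripts these cells make was not examined. After a correction of each library for length, drawn over the other genes, the member median was 0.30 and 55 of 78 were higher. The same correction left 0.36 for ribosome biogenesis genes, 0.34 for mitochondrial ribosomal proteins and 0.29 for nuclear respiratory chain genes. It left 0.02 for TOP mRNAs that do not encode ribosomal proteins and −2.56 for transcripts of the mitochondrial genome.

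Before the correction, nuclear genes of the respiratory chain had a median difference of 1.19 (84 genes), and mitochondrial ribosomal proteins 0.95 (75). TOP mRNAs that do not encode ribosomal proteins had 0.45 (17), ribosome biogenesis genes 0.40 (44) and regulators of TOP translation −0.37 (22). Transcripts of the mitochondrial genome, also short, had −1.75 (11), and 8 of the 11 were below all other 15 libraries. Among other nuclear genes, 4 replication-dependent histone genes (median length 1358 bases) had 0.02 and 8 genes that track RNA composition (948.5 bases) −0.08. RNA quality values per library were not used here. Whether length, GC content, RNA quality, library preparation or the mouse itself set the shift was not tested.

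**Figure D3:**
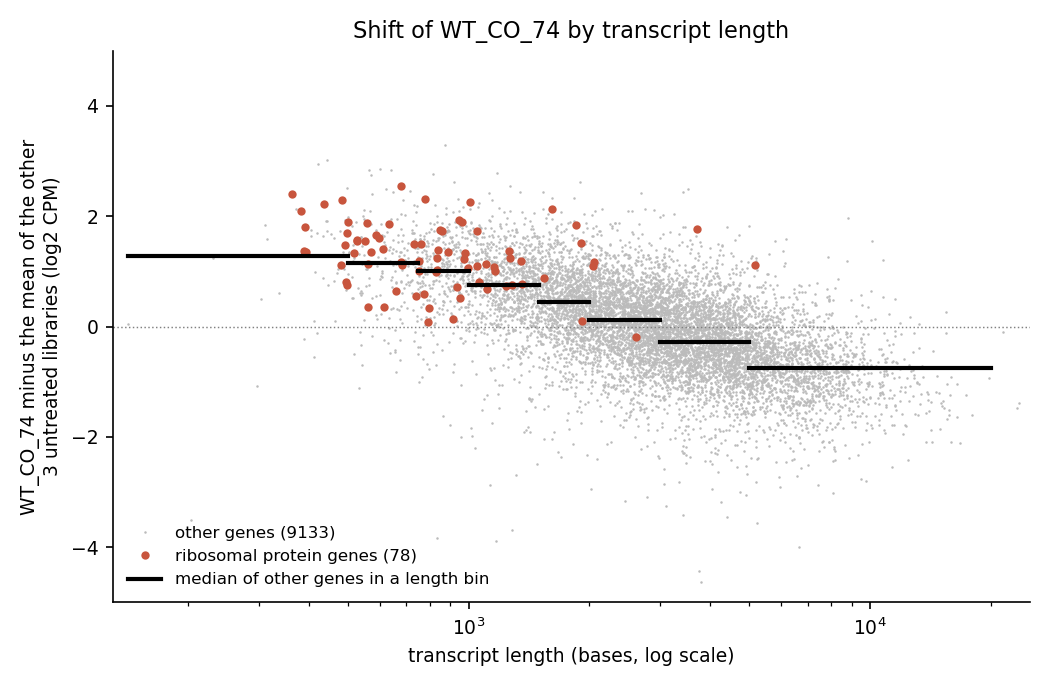
Difference in log2 CPM of WT_CO_74 from the mean of the other 3 untreated libraries (y axis) against transcript length in bases (log axis); points are genes, with the 78 members in red and bars at the median of other genes in a length class, and 2 of 9133 other genes outside the axes. Other genes run from a median of 1.28 at up to 500 bases to −0.74 above 5000, and the members lie mostly above the genes of their length.

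**Figure D4:**
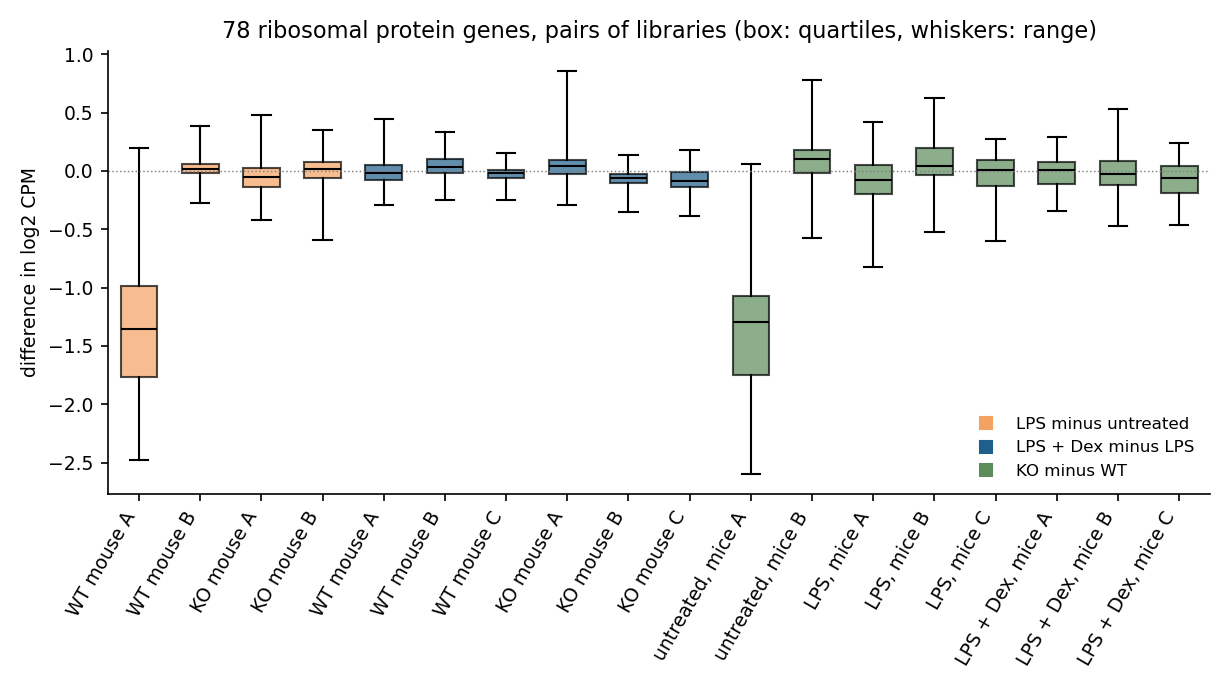
Difference in log2 CPM (y axis) of the 78 members between pairs of libraries (x axis): LPS minus untreated and LPS with Dex minus LPS within a mouse, and KO minus WT within a letter; boxes give the quartiles with the median line and whiskers the range over members. The 2 pairs that hold WT_CO_74 have medians of −1.36 and −1.30, and the other 16 pairs have medians between −0.09 and 0.10.

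The LPS comparison asks which mRNAs change within 1 hr of TLR4 activation. The test was limma's moderated test, adjusted by Benjamini-Hochberg over 9614 genes. With all 16 libraries, 0 of 78 members passed an adjusted p of 0.05 in WT cells, where 6.91% of all genes passed. The member median was still −0.62, and 40 members had an unadjusted p under 0.05. Here and below, the share of all genes under that unadjusted limit was not counted. The lowest adjusted p was 0.0705, for Rpl3. Those values rested on WT_CO_74. In mouse A, whose untreated library it is, the LPS library was lower than the untreated one by a median of 1.36 and 2 of 78 members were higher, while in mouse B the median was 0.02 and 48 were higher. With WT_CO_74 as the sole untreated WT library, 67 of 78 members (85.9%) would be called lower with LPS, where 26.8% of all genes are called lower and 29.3% higher. Without it, 0 of 78 passed, where 3.94% of genes passed, the member median was 0.03 and 1 member had an unadjusted p under 0.05.

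KO cells, whose untreated libraries include no such sample, gave 0 of 78 members in either fit. With 16 libraries 4.01% of all genes passed and 0 members had an unadjusted p under 0.05. With 15 libraries 5.87% passed, the member median was 0.02, and 2 members had an unadjusted p under 0.05. The limits on a change were narrow for many members: in the 15-library fit the 95% interval stayed within 1.5-fold in either direction for 49 members in WT and 58 in KO, and within 2-fold for 71 and 78. Rplp0 differed by −0.10 with LPS in WT (95% interval −0.53 to 0.32) and by 0.02 in KO (−0.32 to 0.35). The nearly unique Rps3 differed by −0.03 (−0.34 to 0.28) and 0.02 (−0.23 to 0.26). Rpl5 and Rpl11, which deliver 5S rRNA to the ribosome and can bind Mdm2, differed by −0.25 (−0.63 to 0.13) and −0.24 (−0.79 to 0.31) in WT and by −0.16 and −0.02 in KO.

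Libraries of the same mouse deviated together, and a fit with the mouse as a block called members in KO cells. In the 15-library fit with the block, 6 members (7.69%) rose with LPS in KO, where 14.7% of genes rose, and 3 (3.85%) fell, where 13.2% fell. Both shares were below those of all genes. The members named from this fit were chosen after its values were seen. Rpl24 rose by 0.33 ± 0.07 (SE, adjusted p = 0.00531 by limma), from 3.93 and 4.24 log2 CPM untreated to 4.41, 4.41 and 4.44 with LPS. The others that rose, by 0.15 to 0.23, were Rpl39, Rpl41, Rpl19, Rps21 and Rpl31. Rpl12, a protein at the stalk base, fell by 0.43 ± 0.10 (adjusted p = 0.0079), Rpl10a fell by 0.33 ± 0.06 (adjusted p = 0.000743) and Rps26 fell by 0.15 ± 0.04 (adjusted p = 0.0191). Rpl10a stood at 5.59 and 5.78 untreated and at 5.17, 5.49 and 5.37 with LPS. The direction of such small changes rests on the scaling of the libraries: when libraries were scaled to the CPM outside the members, 1 rose and 36 fell, and the median of all genes moved by −0.13. In WT cells the same block called 0 of 78 members without WT_CO_74, where 14.9% of genes passed, and with it called Rpl10a and Rpl5 as lower (adjusted p from 0.0477), where 5.18% of genes were lower. Without a block, the difference between the genotypes in their LPS response was called for 0 members and 0% of all genes, with and without WT_CO_74. With the block and without that library it was called for 0 members and 0.187% of genes. The member median without a block was 0.66 with that library and 0.00 without it, and with WT_CO_74 as the sole untreated WT library 63 members (80.8%) would be called higher, where 18.9% of genes are.

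**Figure D5:**
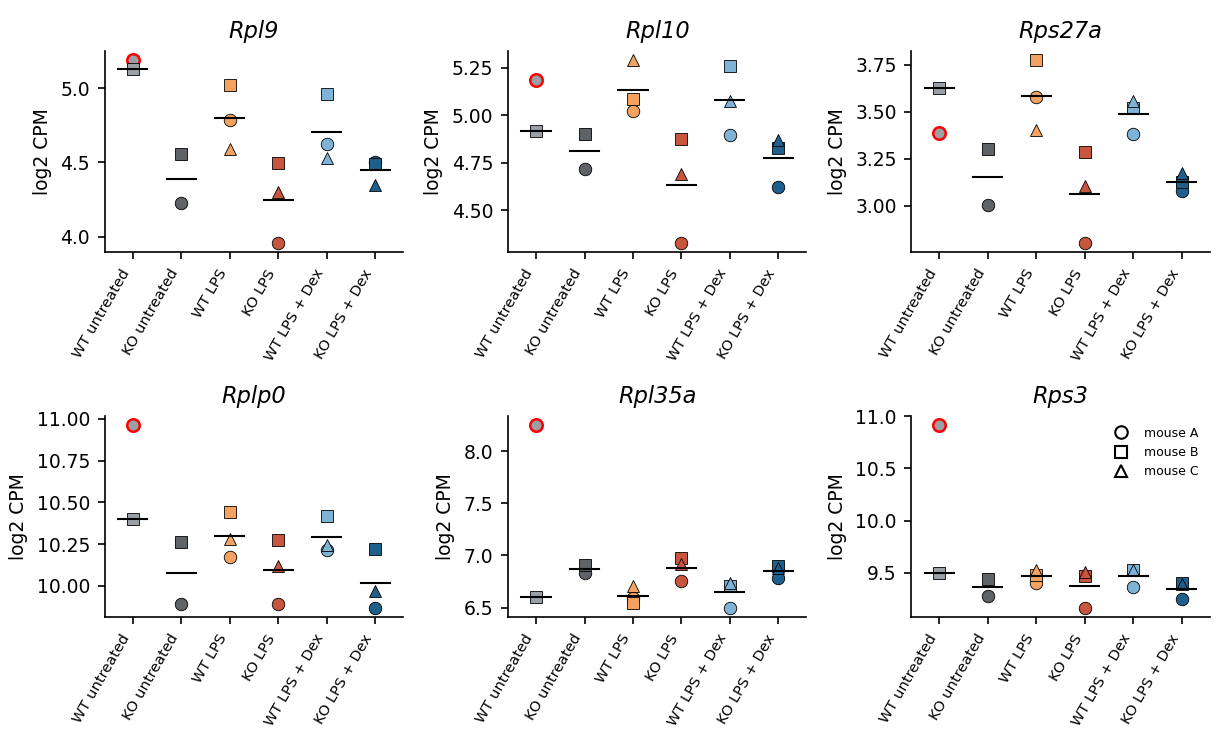
Level (log2 CPM, y axis) of Rpl9, Rpl10, Rps27a, Rplp0, Rpl35a and Rps3 in each library by genotype and treatment (x axis), each panel on its own axis; each point is a library with the mouse shown by its shape, the bar is the group mean without WT_CO_74, and the red outline marks WT_CO_74. The first 3 are lower in every KO library than in every WT library under LPS and under LPS with Dex, Rpl35a is higher in each, and Rps3 overlaps.

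The Dex comparison sets LPS with Dex against LPS alone and asks what the glucocorticoid changes in activated cells. No member passed in WT (0 of 78, background 0.749% of genes in the 16-library fit and 1.29% in the 15-library fit) or in KO (0 of 78, 0.895% and 1.59%), and 0 members had an unadjusted p under 0.05 in either genotype. None of these libraries is WT_CO_74. The member medians were 0.00 in WT and −0.03 in KO, and for 71 and 68 of 78 members the 95% interval stayed within 1.5-fold. For Rps3 the interval was −0.21 to 0.23 in WT and −0.25 to 0.19 in KO. By mouse, the member medians were −0.02 (A), 0.04 (B) and −0.02 (C) in WT and 0.04 (A), −0.06 (B) and −0.09 (C) in KO. No member differed in 1 direction in all 3 WT mice and in the other in all 3 KO mice, a pattern that 2.94% of all genes showed.

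With the mouse as a block and without WT_CO_74, 0 members passed in WT, where 9.62% of genes did, and 4 (5.13%) fell in KO, where 6.34% of genes fell and 6.65% rose. Rpl41, the shortest ribosomal protein, stood at 7.78, 7.84 and 8.22 log2 CPM with LPS and at 7.54, 7.66 and 7.98 with Dex in KO mice A, B and C, lower in each mouse by 0.22 ± 0.05 (SE, adjusted p = 0.015 by limma). Rpl21, Rpl31 and Rps21 fell by 0.19, 0.14 and 0.13. All 4 calls were lost when either library of KO mouse C was left out, which gave 0 members. The difference between the genotypes in their Dex response was called for 0 members and 0% of genes with all libraries, and its member median was −0.03.

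The genotype comparison asks what loss of NELF-B does at each treatment. In untreated cells 0 of 78 members passed in the 16-library fit, where 0.0104% of all genes passed. The member median was −0.63 and 31 members had an unadjusted p under 0.05, a count that has no share of all genes beside it. Without WT_CO_74, which left 1 untreated WT library whose spread is assumed to be like that of the other groups, 0 members and 0% of genes passed and the median was −0.01. With WT_CO_74 alone as the WT sample, 66 members (84.6%) would be called lower in KO, where 24.4% of genes are lower. Among mice B, which do not include that library, KO minus WT had a median of 0.10 and 54 of 78 members were higher in KO, against a median of −1.30 among mice A, where 1 was. With 1 library per mouse neither value has a replicate. The lowest adjusted p without WT_CO_74 was 0.893, for Rplp2, a stalk protein, at 7.57 in the remaining WT library and 7.89 and 8.05 in KO.

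Under LPS, 0 of 78 members passed in either fit (0.146% and 0.281% of genes), and under LPS with Dex 0 of 78 (0.114% and 0.655%). The member medians were 0.00 and −0.03, and the 95% interval stayed within 1.5-fold for 63 and 64 members. Groups of 3 could still be set against each other by overlap. In 4 members (5.13%) every KO library was lower than every WT library under LPS, a pattern that 7.82% of all genes showed, and in 5 members (6.41%) under LPS with Dex, against 8.83%. Rpl10, Rpl9 and Rps27a did so under both treatments (3.85% of members, 5.55% of genes). Rpl13 did so under LPS only, and Rpl8 and Rpl28 under LPS with Dex only. In the other direction Rpl35a was higher in every KO library under both (1.28% of members, 3.77% of genes). It was the 1 such member under LPS (background 5.91%) and was joined by Rpl5 under LPS with Dex (2.56% of members, 8.93% of genes).

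Rpl10, which closes the assembly of the large subunit, stood under LPS at 5.02, 5.09 and 5.29 log2 CPM in WT (mean 5.13 ± 0.14, SD, n = 3) and at 4.33, 4.88 and 4.69 in KO (4.63 ± 0.28). Under LPS with Dex it stood at 4.90, 5.26 and 5.08 in WT and 4.62, 4.83 and 4.87 in KO. The groups did not overlap. Untreated values were 5.19 in WT_CO_74 and 4.92 in the other WT library, and 4.72 and 4.90 in KO. Rpl9 stood under LPS at 4.78, 5.02 and 4.59 in WT (4.80 ± 0.22) and 3.96, 4.49 and 4.30 in KO (4.25 ± 0.27). Under LPS with Dex it stood at 4.62, 4.96 and 4.53 in WT and 4.50, 4.49 and 4.35 in KO, where the nearest libraries of the genotypes almost touched. Untreated values were 5.19 in WT_CO_74 and 5.13 in the other WT library, and 4.23 and 4.55 in KO. Every KO library thus listed Rpl9 below every WT library of its treatment. The untreated part rests on 2 libraries per genotype, WT_CO_74 among them, and Rpl9 passed no genotype test without a block.

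Rps27a, which is made as a fusion with ubiquitin, stood under LPS at 3.58, 3.78 and 3.40 in WT (3.59 ± 0.19) and 2.80, 3.29 and 3.10 in KO (3.06 ± 0.25). Under LPS with Dex it stood at 3.38, 3.52 and 3.56 in WT and 3.08, 3.13 and 3.17 in KO. Untreated values were 3.39 in WT_CO_74, 3.62 in the other WT library and at most 3.30 in both KO libraries, again without overlap. The WT value nearest to KO there was that of WT_CO_74, the library that stood apart. Rps27a had the lowest adjusted p of the members without a block, 0.11 under LPS and 0.261 under LPS with Dex. These 3 genes share the property shown above, that no coding stretch of 50 bases is theirs alone. A difference in reads from their copies cannot be told apart from one in the genes. Coding stretches of the other members were not examined, so the property is not shown to be particular to these 3. Over the whole transcript Rpl35 (4.9%) and Rpl5 (6.16%) had smaller unique shares than any of them. Rpl35a, with 45.5% unique stretches, stood under LPS at 6.60, 6.54 and 6.71 in WT (6.62 ± 0.08) and 6.76, 6.97 and 6.92 in KO (6.88 ± 0.11). Under LPS with Dex it stood at 6.50, 6.71 and 6.74 in WT and 6.78, 6.90 and 6.88 in KO.

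Between genotypes the letter served as the block, a pairing of WT and KO mice that the labels give only in part. With that block and without WT_CO_74, 6 members (7.69%) under LPS were higher in KO, where 5.97% of genes were. A further 8 (10.3%) were lower, where 7.87% were. Under LPS with Dex 2 (2.56%) were higher, against 9.14%, and 11 (14.1%) lower, against 9.58%. Rpl10 differed by −0.50 ± 0.09 (SE, adjusted p = 0.00708) under LPS and by −0.30 (adjusted p = 0.0328) with Dex, and Rplp0 by −0.20 ± 0.05 (adjusted p = 0.0261) and −0.27 (adjusted p = 0.00698), all by limma. Rps27a, Rpl12, Rps3a1 and Rps19 were also lower under both treatments, and Rpl35a was higher under both, by 0.27 and 0.21. Rplp0 stood under LPS at 10.17, 10.44 and 10.28 in WT and 9.89, 10.27 and 10.12 in KO, lower in KO within each letter although the groups overlap. These calls were made in a fit that counts the LPS and the Dex library of 1 mouse as separate samples. With only the 6 libraries of the groups compared and the same block, 0 members passed under LPS, where 0.125% of genes passed, and 0 under LPS with Dex, where 0.614% did. In untreated cells the block called 0 members, where 0.0936% of genes passed.

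Outside WT_CO_74, the level of the members as a whole was lower in mice A than in mice B or C. Mice that share a letter are different animals in WT and KO. The mouse and any handling shared by a letter cannot be told apart here. In the 5 libraries of mice A other than WT_CO_74, the median member lay at −0.15 to −0.09 relative to its mean over 15 libraries. It lay at −0.02 to 0.09 in libraries of mice B and at 0.07 to 0.12 in libraries of mice C. Mice A were lowest in WT and in KO, and mice B and C overlapped in KO. The members' share of CPM ran from 1.44% to 1.60% in mice A, 1.67% to 1.83% in mice B and 1.66% to 1.82% in mice C. By group the share was 1.70% ± 0.115 (SD, n = 3) in WT with LPS, 1.62% ± 0.149 in KO with LPS, 1.73% ± 0.126 in WT with LPS and Dex, 1.59% ± 0.131 in KO with LPS and Dex and 1.72% ± 0.162 (n = 2) in untreated KO cells, with 1.82% in the remaining untreated WT library. The ranges of the groups with more than 1 library overlapped. The LPS library of KO mouse A held the lowest value for 23 of 78 members and for 3.92% of all genes. In the libraries of mice C, other genes of up to 750 bases exceeded those above 5000 bases by 0.26 to 0.44, and their part in the members' order was not tested.

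The paralogs are set beside their parents. Rpl22l1, a paralog of Rpl22 that also binds RNA outside the ribosome, stood at 4.08 log2 CPM over 15 libraries (4.93 per kb) and Rpl22 at 7.65 (6.61 per kb). Rpl36al stood at 6.56 (7.49 per kb) and Rpl36a at 3.75 (4.80 per kb), so that here the paralog was listed above the parent, of whose 50-base stretches 14.5% were unique. Rpl7l1 stood at 5.47 (4.09 per kb) and Rpl7 at 8.88 (8.66 per kb), and Rps27l, a p53 target, at 6.03. Rps19bp1 stood at 3.68 beside Rps19 at 7.96. Without a block, none of the 5 passed in any of the 9 comparisons, in either the 15-library or the 16-library fit. Rpl22l1 had the widest difference among them, 0.65 with LPS in WT (95% interval −0.17 to 1.47), from 3.61 in 1 untreated library to 4.35, 3.79 and 4.62. With all 16 libraries that difference was −0.24 (adjusted p = 0.719 by limma). With the block and without WT_CO_74 Rpl22l1 was lower in KO than in WT under LPS with Dex, with a difference of −0.26 (adjusted p = 0.0352 by limma).

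The genes around the ribosome were read by the same fit of 15 libraries without a block, and then with the block. Of 22 regulators of TOP mRNA translation and ribosome synthesis, 1 rose and 1 fell with LPS in each genotype. Myc, a transcription factor that drives ribosome synthesis, stood at 5.05 log2 CPM in the remaining untreated WT library and at 6.57, 7.32 and 7.10 with LPS, a rise of 1.94 ± 0.35 (SE, adjusted p = 0.00561 by limma). Its level in WT_CO_74 was 3.73, and with all 16 libraries the rise was 2.61 ± 0.36 (adjusted p = 0.000396). In KO it stood at 3.76 and 4.69 untreated and at 6.76, 7.18 and 6.83 with LPS, a rise of 2.70 ± 0.27 (adjusted p = 3.85e-05). Mlst8, a subunit of both mTOR complexes, fell by 0.67 in WT (adjusted p = 0.0135) and by 0.63 in KO (adjusted p = 0.00291), from 3.93 to 3.96 in untreated cells to 3.13 to 3.45 with LPS. With all 16 libraries the WT change in Mlst8 was −0.82 (adjusted p = 0.0014), and Sesn2, a stress-induced inhibitor of mTORC1, was also called, at −0.57 (adjusted p = 0.0375). With Dex 1 of the 22 rose in each genotype, where 1.29% of all genes passed in WT and 1.59% in KO. Pdcd4, an inhibitor of the helicase eIF4A, stood at 3.72, 3.20 and 3.20 with LPS and at 4.49, 4.72 and 4.39 with Dex in WT, a rise of 1.16 ± 0.16 (adjusted p = 0.00353), and rose by 1.33 ± 0.16 in KO (adjusted p = 0.00109). Without a block Larp1, Eif4ebp1 and Eif4ebp2 did not pass in these comparisons. Eif4ebp2 stood at −0.49 with LPS in WT without WT_CO_74 (adjusted p = 0.241) and at 0.53 with all 16 libraries (adjusted p = 0.368).

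With the mouse as a block and without WT_CO_74, more of the 22 regulators were called, and the genes named from this fit were chosen after its values were seen. In WT, its LPS changes rest on mouse B, since no other WT mouse has an untreated library in it. With LPS, 2 rose and 4 fell in WT (9.09% and 18.2%, where 8.91% of all genes rose and 5.95% fell), and 3 rose and 5 fell in KO (13.6% and 22.7%, where 14.7% and 13.2% did). Sesn1 and Sesn2 fell in both genotypes, by 0.46 and 0.45 in WT and by 0.51 and 0.52 in KO. Eif4ebp2 fell by 0.24 in WT and by 0.29 in KO (adjusted p = 0.000665 by limma). Larp1 rose by 0.21 (adjusted p = 0.00105) and Eif4ebp1 fell by 0.42 (adjusted p = 0.00118) in KO. With Dex, 4 rose and 1 fell in WT (18.2% and 4.55%, where 4.50% of all genes rose and 5.12% fell). In KO 4 rose and 3 fell (18.2% and 13.6%, where 6.65% and 6.34% did). Sesn1, Sesn2, Pdcd4 and Ddit4, an inhibitor of mTORC1 that glucocorticoids induce, rose in both genotypes, and Myc fell in both. Ddit4 rose by 1.62 in WT (adjusted p = 8.39e-05) and by 1.70 in KO (adjusted p = 4.92e-05).

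Few genes of the other lists passed without a block, and the shares of all genes given above were low too. Without WT_CO_74, 5.87% of all genes passed with LPS in KO, and 1.29% and 1.59% with Dex in WT and KO. For KO minus WT under LPS with Dex it was 0.655%. In the 15-library fit, none of the 4 ribosomal protein genes outside the symbol rule, 17 other TOP mRNAs, 44 ribosome biogenesis genes and 84 nuclear respiratory chain genes passed with LPS or Dex in either genotype, and of 75 mitochondrial ribosomal proteins Mrps2 fell by 0.36 with LPS in KO (adjusted p = 0.0456 by limma). The 16-library fit called Taf1c of the biogenesis list (−0.56, adjusted p = 0.0251) and Mrpl49 of the mitochondrial ribosome (−0.93, adjusted p = 0.00784) with LPS in WT, and did not call Mrps2. Of 8 genes that track RNA composition, the nuclear RNA Neat1 fell by 0.90 with LPS in WT (adjusted p = 0.0433) in the 15-library fit and was not called with 16. Of 4 replication-dependent histone genes, Hist1h1c was higher in KO under LPS with Dex by 1.45 (adjusted p = 0.0498) in the 15-library fit.

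With the block and without WT_CO_74, the lists gave more calls. In WT, the LPS changes of this fit rest on mouse B, since no other WT mouse has an untreated library in it. With LPS, 5 of the 44 biogenesis genes (11.4%) rose in WT and 0 fell, and 7 (15.9%) rose and 1 (2.27%) fell in KO, beside the shares of all genes given above. Nop58, a core protein of box C/D particles, rose by 0.69 in WT and by 0.50 in KO (adjusted p = 0.000248 by limma). Rrs1, which takes part in assembly of the large subunit, rose by 0.52 in WT and by 0.64 in KO (adjusted p = 4.27e-05 by limma). With Dex, Rrs1 fell by 0.24 in WT (adjusted p = 0.0412) and by 0.30 in KO (adjusted p = 0.00825), both by limma. Of the mitochondrial ribosomal proteins 6 (8.00%) fell in WT and 0 rose, and 21 (28.0%) fell and 1 (1.33%) rose in KO. Of the respiratory chain genes 0 passed in WT, and 4 (4.76%) fell and 1 (1.19%) rose in KO. With Dex, no more than 4 genes of any of these 3 lists passed in either direction in either genotype. The largest count was 4 respiratory chain genes (4.76%) that fell in KO, where 6.34% of all genes fell. Between genotypes the block was the letter, in the fit that counts the LPS and the Dex library of 1 mouse as separate samples. Under LPS with Dex, Rpsa and Gnb2l1 of the 4 ribosomal protein genes outside the symbol rule were lower in KO. Of the 11 transcripts of the mitochondrial genome 7 (63.6%) were higher there and 0 lower. Of all genes 9.58% were lower and 9.14% higher. Under LPS without Dex, 0 of those 4 ribosomal protein genes passed, and 4 of the 11 mitochondrial transcripts (36.4%) were higher and 0 lower. Of the 84 respiratory chain genes, 13 (15.5%) were higher under LPS and 1 (1.19%) lower, where 5.97% and 7.87% of all genes were. Under LPS with Dex, 2 of the 84 (2.38%) were higher and 2 (2.38%) lower, both below the shares of all genes. Of the 4 histone genes 3 were higher under LPS and 2 with Dex.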

How the data were processed

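Poly(A) RNA from BMDM was sequenced as paired reads of 50 bases. Per the study's methods and the labels, the authors used CLC Bio Genomic Workbench to align to mm10 and to count reads with a single place in an exon, scaled libraries by TMM in edgeR and deposited log2 CPM per gene. The submitters' processing notes also list CASAVA 1.8 and FastQC. The deposited table further holds the authors' fold changes, p-values and false discovery rates, which were not used. Low CPM values were whole multiples of 1 read in every library (100% of values under 3 CPM, tolerance 0.2 reads), which gave the reads per library, 25029567 to 49728630. Such depth limits only the lowest genes.

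The deposited log2 values were tested with limma 3.58.1 (R 4.3.3; lmFit, eBayes with trend) over 16 libraries in 6 groups, with no filter, and p-values were adjusted by Benjamini-Hochberg over 9614 genes; a call is an adjusted p under 0.05. All fits were repeated without WT_CO_74. The fit without a block was run on simulated data with independent libraries, for WT LPS+Dex minus LPS, KO minus WT under LPS and KO LPS minus untreated. That run does not bear on the fits with a block or on the shift of WT_CO_74. The labels tie libraries to 3 mice per genotype, so the mouse was used as a block for treatments. With that block and without WT_CO_74, WT LPS minus untreated rests on mouse B. Deviations of all genes correlated by mouse between LPS and LPS with Dex (Pearson's r 0.885 to 0.939 in WT and 0.781 to 0.902 in KO), and between untreated and LPS at 0.448 in WT and 0.865 in KO. Between genotypes the block was the letter, which the labels do not name as a batch. Some libraries of mice B carry the same date in the labels in WT as in KO. Some of mice C carry a sample number in both, which names no shared run or date. Mice A are the remainder, and the labels print a date for them in KO only. Same-letter deviations between genotypes correlated at 0.443 to 0.682 under LPS, 0.482 to 0.760 under LPS with Dex and 0.351 untreated. Annotation was GENCODE vM21 (GRCm38), which matched 78 of 78 members and 95.8% of all genes by symbol; promoters were from RefSeq (GRCm38.p6).

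The members and gene lists were chosen with earlier results of these data known. Named are members called, the 4 highest and 4 lowest by level, the 4 at each end of WT_CO_74 minus the other untreated WT library, paralogs, a fixed set (stalk, 5S particle, reference genes and some others) and called genes of other lists with Myc, Larp1, Eif4ebp1 and Eif4ebp2. Genes named from the fits with a block or for groups that do not overlap were chosen after their values were seen.

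Alternatives were other scalings, log2(CPM + 1), a filter on mean log2 CPM above 1, voom on the recovered reads, only the groups compared, another threshold, the block and each library left out.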

Additional observations from a re-analysis of the deposited data

How the results depend on the processing

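In the fits of all 16 libraries without a replicate block, the count of members called stayed at 0 under most alternatives. The exception was WT LPS minus untreated, where lower members were called as follows: 2 with the replicate block (mouse), 3 when libraries were centred on the median gene, 6 after quantile normalization, 3 when scaled to the CPM outside the members, 1 after the correction for transcript length (chosen after seeing the data) and 4 at an adjusted p under 0.1. Leaving out 1 library in turn gave 0 to 67 members for this comparison, 0 to 66 for KO minus WT in untreated cells and 0 to 63 for the difference between genotypes in the LPS response. The highest counts came without the other untreated WT library, which left WT_CO_74 alone. The remaining comparisons gave 0 to 0. With the replicate block over all 16 libraries the other comparisons gave 0. For the 3 comparisons that use untreated WT cells, the counts without WT_CO_74 were 0 under each alternative run.

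The fits that joined the replicate block with leaving out WT_CO_74 were chosen after seeing the data. KO LPS minus untreated then gave 9 members, 14 centred, 36 by quantiles, 37 scaled to the CPM outside the members, 10 corrected for length and 9 with log2(CPM + 1), with the filter or with only the groups compared. Its leave-one-out range was 3 to 12, with the lowest without the LPS library of KO mouse A, and 8 without the untreated library of KO mouse A, the LPS library of KO mouse B or the Dex library of KO mouse C. KO LPS+Dex minus LPS gave 4, 4, 3, 2, 2, 4 and 4 under the same settings, 7 with only the groups compared, and 0 to 5 with a library left out, 0 without either library of KO mouse C and 2 without a library of KO mouse A or the LPS library of KO mouse B. KO minus WT under LPS gave 14, 15, 12, 15, 17, 14 and 14, and 3 to 15 with a library left out, with 3 without the LPS library of WT or KO mouse A, 8 without that of WT mouse B, 7 without WT mouse C and 5 without KO mouse B or C. KO minus WT under LPS with Dex gave 13, 13, 11, 17, 15, 13 and 13, and 2 to 13, with 2 without the Dex library of WT or KO mouse C, 3 without WT or KO mouse A, 8 without WT mouse B and 5 without KO mouse B. With only the groups compared, both genotype counts were 0. WT LPS+Dex minus LPS gave 0 to 0. The cause of these changes was not tested. The median shift of WT_CO_74 was 1.24 as deposited, 1.12 after quantile normalization, 1.03 scaled to the CPM outside the members and 0.30 corrected for length.

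Untreated groups held 2 libraries, and 1 in WT without WT_CO_74, and the 95% interval of WT LPS minus untreated stayed within 1.5-fold for 49 of 78 members. No setting addressed reads that map to several places.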
